A study of Drosophila melanogaster with 4 samples.

Results

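The genes described here are 34 Drosophila genes that make ribosomes: subunits and factors of RNA polymerase I, proteins of the small nucleolar ribonucleoproteins (snoRNPs), and assembly factors of the small (40S) and large (60S) ribosomal subunits. They were chosen by name, with earlier results of these data known. Each was found in the deposited tables by its transcript coordinates, and 1 was matched through an updated symbol (GAR1, listed as Gar1). They are 34 of 17438 genes or joint loci in the tables, and all 34 were among the 7784 that passed the filter on low counts. Ribosome footprints, short stretches of mRNA protected from nuclease digestion by a translating ribosome, had been sequenced from ovaries of young female flies kept at 25 °C and dissected 48 h after eclosion. There were 2 wildtype libraries and 2 libraries from RpS5b mutant flies. RpS5b encodes a paralog of the small-subunit ribosomal protein S5; the labels name no allele, no strain background and no number of flies. Egg chambers of stages 10 to 14 were removed from the control ovaries only, as far as the labels say. Whether the libraries of 1 genotype came from separate flies is not stated, so p-values here measure a spread between libraries that may be technical only.

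As background, RNA polymerase I transcribes the ribosomal DNA in the nucleolus into a long precursor that is cut, modified and packed with ribosomal proteins. Box C/D snoRNPs guide 2′-O-methylation of the precursor, box H/ACA snoRNPs guide pseudouridylation, and a succession of helicases, GTPases and kinases drives the assembly and export of both subunits. In the fly ovary the germline and the follicle cells both grow rapidly, nurse cells supply the oocyte with ribosomes, and female germline stem cells are known for high rates of ribosomal RNA synthesis.

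Ribosome footprints on these genes were higher in the mutant for most of the group. With edgeR (quasi-likelihood test, adjusted p under 0.05), 28 of the 34 genes rose and 1, Nop17l, fell, while 20.4% of all tested genes rose and 20.9% fell, 41.3% in all. The 5 genes that did not pass were Polr1D, Non1, vito, dbe and Tif-IA. In CPM (library-size-scaled counts after TMM normalisation), the 2 mutant libraries lay above both wildtype libraries for 32 of the 34 genes, below both for Nop17l, and among them for Tif-IA. The same separation upward held for 37.5% of all tested genes, and downward for 34.3%. The median log2 fold change of the 34 genes, mutant over wildtype, was 0.77, with quartiles of 0.60 and 0.99, against 0.03 for all tested genes, with quartiles of −0.49 and 0.52. All but 5 of the genes lay above the upper quartile of all tested genes. An exact permutation test on 1 gene could reach a two-sided p of 0.333 at the lowest with so few libraries, and the calls therefore depend on the variance that edgeR pools across genes.

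**Figure D1:**
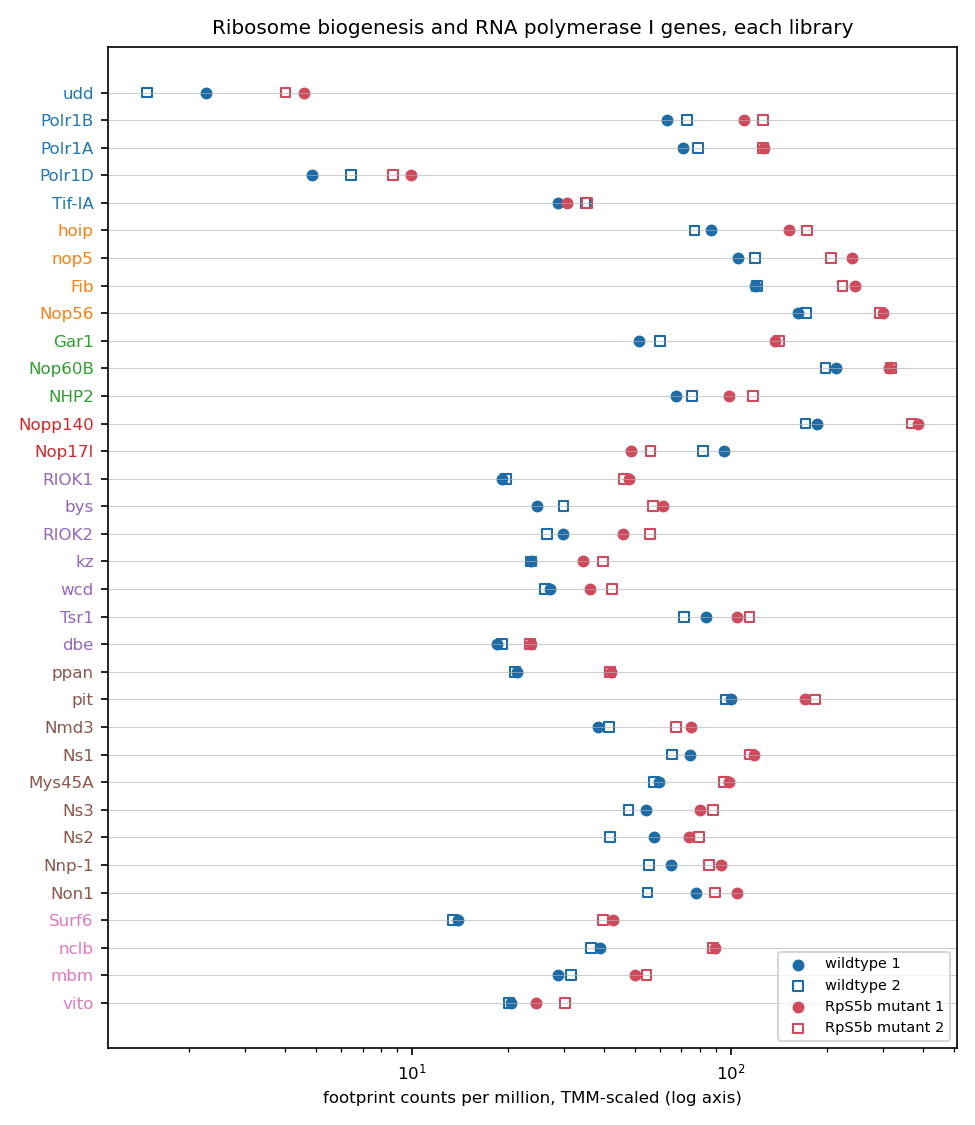
Footprint level in CPM (TMM-scaled, log axis) of each of the 34 genes in each library, grouped by role through the colour of the symbol: RNA polymerase I, box C/D, box H/ACA, snoRNP chaperone or assembly, 40S, 60S, other nucleolar. Both mutant libraries lie to the right of both wildtype libraries for 32 genes, to the left for Nop17l, and among them for Tif-IA.

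Summed over the 34 genes, the level was 2133 CPM and 2070 CPM in the wildtype libraries and 3622 CPM and 3638 CPM in the mutant libraries. As a share of the counts on protein-coding genes, the sum was 0.626% and 0.646% in wildtype and 1.01% and 1.03% in the mutant. The libraries of a genotype thus lay close together in this sum, and the genotypes did not overlap. A footprint count joins the amount of an mRNA with its occupancy by ribosomes, and the 2 cannot be told apart here. In such bulk ovary samples, a change in the number of cells of a type and a change in RNA or footprints per cell cannot be told apart either.

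The libraries held between 3122299 and 13942184 reads by the file headers, both wildtype libraries being the shallower. Of the counts assigned to genes, 54.8% to 63.9% were on transfer RNA genes, and between 1053480 and 4599941 counts a library were on protein-coding genes. RpS5b stood at 92.9 CPM and 63.1 CPM in the wildtype libraries and at 0.777 CPM and 1.03 CPM in the mutant libraries, low in the libraries labelled mutant. Its paralog RpS5a stood at 44.3 CPM and 33.2 CPM in wildtype and at 137 CPM and 83.3 CPM in the mutant. The 34 genes themselves had a median count of 172.5 and 278.0 in the wildtype libraries and of 1089 and 755.5 in the mutant libraries, and udd, with 7 and 8 counts in wildtype, had the fewest.

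Cell type markers also differed between the genotypes. The 9 chorion genes, markers of late follicle cells, all fell, with a summed level of 7091 CPM and 4798 CPM in wildtype and of 1600 CPM and 1123 CPM in the mutant. Of 9 other follicle cell markers 7 were tested and all 7 rose, from a sum of 174 CPM and 164 CPM to 379 CPM and 356 CPM. The 9 germline markers summed to 1109 CPM and 979 CPM in wildtype and to 1051 CPM and 1113 CPM in the mutant, which overlap, and the markers that define the germline (vas, nanos, osk, ovo, otu) were present in every library. Within that list of 9, 1 gene rose, aub, while 2 fell, osk (log2 fold change −1.98, edgeR adjusted p = 0.000328) and nanos. Over all tested genes 20.4% rose and 20.9% fell. Of 9 muscle markers 2 rose (sls and bt), near the share over all tested genes. Their sums were 276 CPM and 210 CPM against 293 CPM and 276 CPM. The 6 fat body markers and the 7 gut markers were at 0 in both wildtype libraries and at most 0.777 CPM and 0.0777 CPM in sum in a mutant library. The chorion and follicle lists moved with the genotype, as the 34 genes did, and their part in the results below was not tested. As far as the labels say, late egg chambers were removed from the control ovaries only, yet the chorion sums were higher in wildtype. This difference in dissection runs together with genotype, so these libraries cannot separate them. Rises and falls given here therefore compare the libraries as labelled, dissection included.

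**Figure D2:**
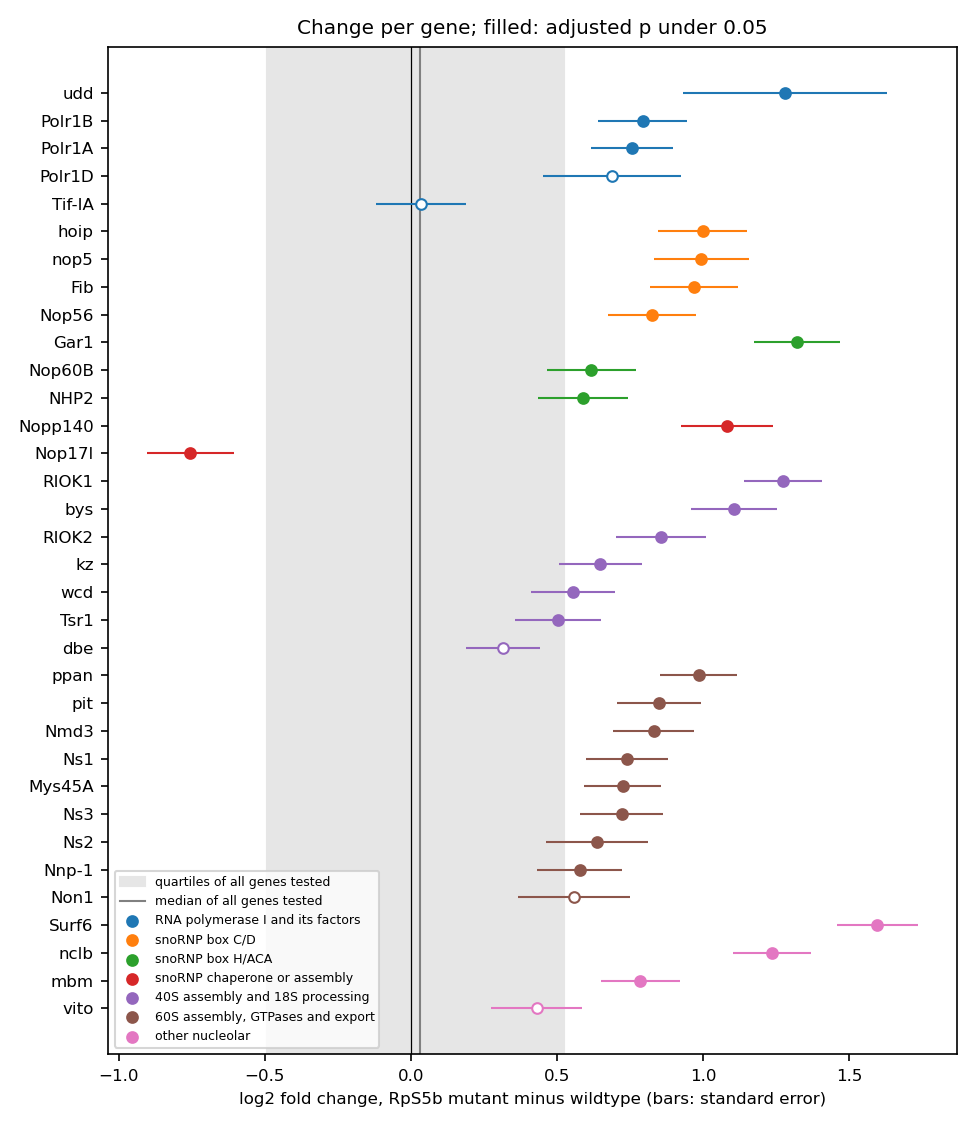
Log2 fold change of each of the 34 genes, mutant minus wildtype, with its standard error (2 libraries a genotype); filled points have an edgeR adjusted p under 0.05, the grey band spans the quartiles of all tested genes and colours mark the role. Surf6 lies highest at 1.60 and Nop17l lowest at −0.75, with Tif-IA close to 0.

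Among the 5 genes of RNA polymerase I and its factors, the 2 large subunits and udd rose, and Polr1D and Tif-IA did not pass the test. Polr1A, the largest subunit, which forms the catalytic cleft with Polr1B, stood at 70.9 CPM and 78.9 CPM in wildtype and at 127 CPM and 126 CPM in the mutant. Its log2 fold change was 0.76 ± 0.14 (standard error), with an edgeR adjusted p of 0.00442. The mutant libraries were nearly equal and both lay above wildtype. Polr1A lies on chromosome 2R, minus strand, from 14595611 to 14601216 of BDGP6 (Release 6). Polr1B, the second-largest subunit, on 2L from 404285 to 407969, plus strand, stood at 63.1 CPM and 73.0 CPM in wildtype and at 110 CPM and 126 CPM in the mutant. It rose by 0.79 ± 0.15 on the log2 scale (edgeR adjusted p = 0.00521), and the groups did not overlap. Per length, the ratio of Polr1A to Polr1B in RPKM was 0.788 and 0.759 in wildtype and 0.810 and 0.703 in the mutant, so the ratios of the genotypes overlapped.

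Polr1D, a small subunit that RNA polymerases I and III share, had few footprints: 15 and 35 counts in wildtype and 128 and 76 in the mutant. That is 4.85 CPM and 6.46 CPM against 9.95 CPM and 8.72 CPM. The groups did not overlap, but the log2 fold change of 0.69 ± 0.24 missed the threshold (edgeR adjusted p = 0.0513). It passed in 4 of the 13 alternatives in which it was tested, and with single libraries left out its log2 fold change ran from 0.54 to 0.94. Its transcript on 2L, from 19133023 to 19133483, minus strand, shares 18.6% of its length with DCTN6-p27 on the other strand.

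Of the initiation factors, udd rose and Tif-IA did not pass the test; the difference between them was not tested. Tif-IA, the fly counterpart of the factor that makes RNA polymerase I competent to initiate and that responds to growth signals, stood at 28.8 CPM and 35.0 CPM in wildtype and at 30.6 CPM and 35.4 CPM in the mutant. The libraries of the genotypes were interleaved. Its log2 fold change was 0.03 ± 0.16 (edgeR adjusted p = 0.881), and it turned negative when wildtype replicate 1 (−0.09) or mutant replicate 2 (−0.07) was left out. Relative to Polr1A, Tif-IA stood at 0.964 and 1.05 in RPKM in wildtype and at 0.571 and 0.665 in the mutant, where both ratios were lower. Tif-IA lies on 2L from 22249876 to 22258260, plus strand, and its counted exons overlap no other gene.

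The other factor, udd, belongs to a promoter-binding complex of RNA polymerase I that is known from fly female germline stem cells. It stood at 2.27 CPM and 1.48 CPM in wildtype and at 4.59 CPM and 4.01 CPM in the mutant, from 7, 8, 59 and 35 counts. Both mutant libraries were higher, and the log2 fold change was 1.28 ± 0.35 (edgeR adjusted p = 0.0226), with the widest error of the 34 genes. The call was lost without wildtype replicate 2, without mutant replicate 1 and in DESeq2, and over all alternatives the edgeR or DESeq2 adjusted p ran from 0.00607 to 0.187. udd lies on 2R from 8106385 to 8107373, plus strand.

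The other RNA polymerase subunit genes were then set beside these. All 4 remaining Polr1 genes rose, with a median log2 fold change of 1.09, beside 20.4% of all tested genes that rose. Polr1H stood at 4.53 CPM and 6.27 CPM in wildtype and at 15.0 CPM and 14.7 CPM in the mutant (log2 fold change 1.41 ± 0.21, edgeR adjusted p = 0.00186). Polr1F stood at 4.21 CPM and 7.19 CPM against 13.9 CPM and 16.4 CPM (1.32 ± 0.25, edgeR adjusted p = 0.00478). Both had groups that did not overlap, but few wildtype counts: 14 and 34 for Polr1H, and 13 and 39 for Polr1F. Polr1E rose by 0.71 ± 0.14 and Polr1C by 0.86 ± 0.14 on the log2 scale.

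Sorted by the enzyme they belong to, a sorting made after the values were seen, all 5 subunits that RNA polymerase I alone uses rose, with log2 fold changes from 0.71 to 1.41. For these counts by class, the shares over all tested genes in edgeR were 20.4% higher and 20.9% lower. Of the 2 subunits that RNA polymerases I and III share, Polr1C rose and Polr1D did not pass. Of the 5 subunits common to all of the enzymes, 4 rose (Polr2E, Polr2F, Polr2H and Polr2K). The exception, Polr2L, stood at 22.01 CPM and 24.5 CPM in wildtype and at 22.3 CPM and 25.0 CPM in the mutant. None of the remaining 8 genes of the RNA polymerase II list rose in edgeR or in DESeq2 (0 at an unadjusted p under 0.05), and 3 fell in edgeR. Among these Polr2B, its second-largest subunit and so the counterpart of Polr1B, stood at 86.7 CPM and 89.6 CPM in wildtype and at 53.6 CPM and 46.5 CPM in the mutant. That is a log2 fold change of −0.82 ± 0.14 (edgeR adjusted p = 0.00327), and the groups did not overlap. Polr2J (−0.41 ± 0.14) and Polr2M (−0.83 ± 0.21) were the others, and Polr2A, the largest subunit, had a log2 fold change of 0.28 ± 0.13 (edgeR adjusted p = 0.126).

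Of the 10 genes of RNA polymerase III 5 rose, beside 20.4% of all tested genes. The largest subunits of this enzyme did not pass: Polr3A had a log2 fold change of 0.09 ± 0.15 and Polr3B of −0.05 ± 0.15. Those that rose included Polr3K (0.77 ± 0.23), Polr3D (0.66 ± 0.19) and Polr3E (0.59 ± 0.18). The largest log2 fold change among them was that of Polr3G (1.22 ± 0.30), from 15 and 26 counts in wildtype and 117 and 120 in the mutant. Polr3K is counted jointly with Tcs1, and Polr2D with Ada2a, so both values are uncertain. The RNA polymerase III count fell to 0 without wildtype replicate 1, to 3 without wildtype replicate 2, to 2 without mutant replicate 1 and to 1 in DESeq2. The RNA polymerase II genes that fell numbered 1 in DESeq2, without wildtype replicate 2 and without mutant replicate 1, whereas all 5 own subunits of RNA polymerase I rose in DESeq2 as well. The differences between the classes were not tested.

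**Figure D3:**
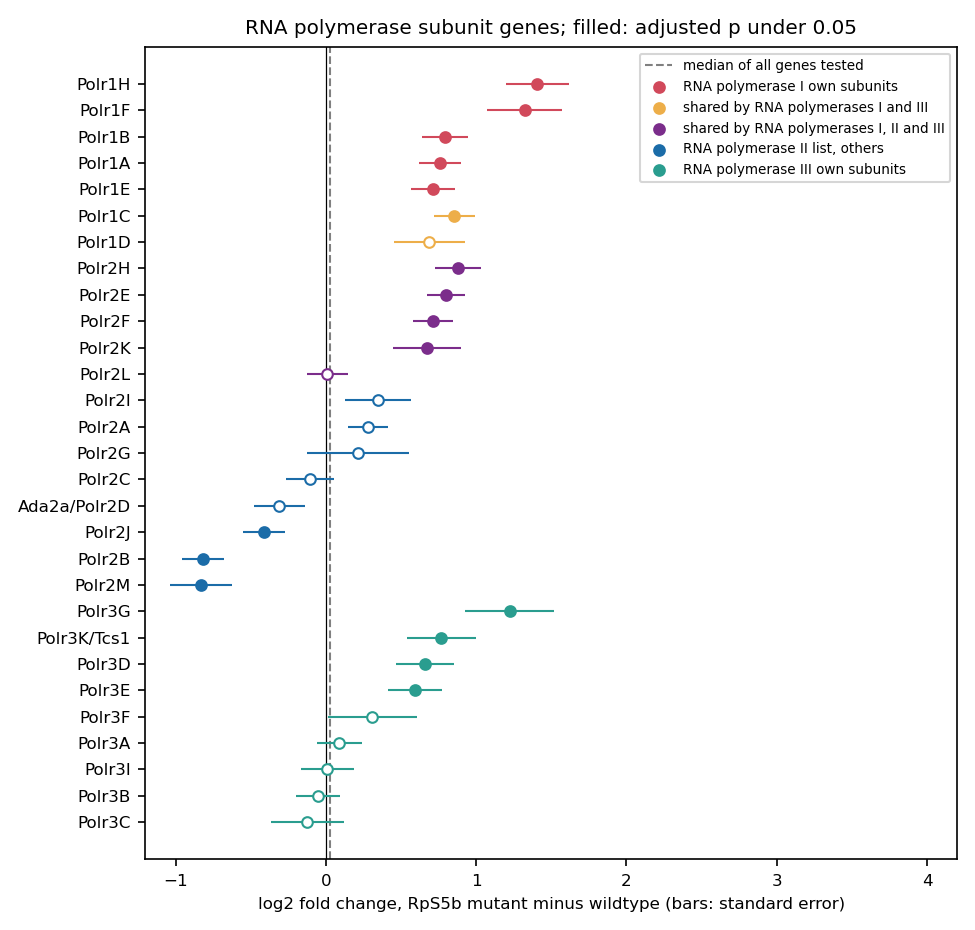
Log2 fold change (mutant minus wildtype, bars are standard errors, 2 libraries a genotype) of the subunit genes of RNA polymerases I, II and III, coloured by the enzymes that use them, 1 gene not being shown; filled points have an edgeR adjusted p under 0.05 and the dashed line is the median of all tested genes. The 5 own subunits of RNA polymerase I are all filled and to the right, and the filled points of the remaining RNA polymerase II genes are to the left.

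All 4 core proteins of the box C/D snoRNPs rose, by a similar amount. hoip encodes the small RNA-binding protein that nucleates the particle and is also part of the U4 spliceosomal particle. Its level was 86.4 CPM and 76.9 CPM in wildtype and 153 CPM and 173 CPM in the mutant, a log2 fold change of 0.999 ± 0.15 (edgeR adjusted p = 0.00207), with no overlap. Fib, the methyltransferase fibrillarin, rose from 119 CPM and 121 CPM to 246 CPM and 224 CPM (0.97 ± 0.15, edgeR adjusted p = 0.00219). The scaffold proteins nop5 (0.99 ± 0.16) and Nop56 (0.83 ± 0.15) rose with edgeR adjusted p-values of 0.0027 and 0.00427.

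Per length, the box C/D proteins were among the most footprinted of the 34 genes. In RPKM, hoip ranked highest in both genotypes, at 126 on average in wildtype and 259 in the mutant. The ratio of Nop56 to Fib was 1.03 and 1.07 in wildtype and 0.920 and 0.989 in the mutant, a little lower in the mutant without overlap. The ratios of hoip to Fib and of nop5 to Fib overlapped between the genotypes. The genes lie on 2L (hoip at 9699791 to 9700459, nop5 at 6916753 to 6918743), 2R (Fib at 23072909 to 23074725) and 3R (Nop56 at 22419095 to 22421068), and none of their counted exons overlaps another gene.

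The 3 box H/ACA proteins all rose, and Gar1 had the largest log2 fold change. The differences between them were not tested. Gar1, which helps load and release the substrate RNA, stood at 51.5 CPM and 59.9 CPM in wildtype and at 137 CPM and 142 CPM in the mutant. Its log2 fold change was 1.32 ± 0.15 (edgeR adjusted p = 0.00059), the second largest of the 34 genes, and the groups were far apart. It lies on 2R from 21095958 to 21097305, minus strand. NHP2, an RNA-binding core protein, rose by 0.59 ± 0.15 (edgeR adjusted p = 0.0187) and Nop60B, the pseudouridine synthase known as dyskerin in mammals, by 0.62 ± 0.15 (edgeR adjusted p = 0.0157). In RPKM the ratio of Gar1 to NHP2 was 0.624 and 0.647 in wildtype and 1.14 and 0.987 in the mutant, and the ratio of Nop60B to Gar1 was 1.16 and 0.927 against 0.639 and 0.631. Neither ratio overlapped between the genotypes, while that of Nop60B to NHP2 did.

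The counted transcript of Nop60B spans 24174877 to 24186343 on 2R, plus strand, with 7 snoRNA genes inside the span and 15.3% of its exon length overlapping 6 of them. On the Nop60B transcript with no such overlap, a choice added after seeing the data, the log2 fold change was 0.71 (edgeR adjusted p = 0.00856). The calls on Nop60B and NHP2 were the less stable ones here. The call on Nop60B was lost with any 1 of the 4 libraries left out, at log2 fold changes from 0.56 to 0.67, and with library totals in place of TMM. That on NHP2 was lost in DESeq2 and on leaving out wildtype replicate 1 or mutant replicate 2, with adjusted p-values of at most 0.0996.

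Nopp140 and Nop17l, the 2 genes listed as chaperone or assembly factors of snoRNPs, moved in opposite directions. Nopp140 encodes a phosphoprotein of the nucleolus and Cajal bodies that binds snoRNPs in mammals. It had 186 CPM and 172 CPM in wildtype and 388 CPM and 369 CPM in the mutant, with no overlap between the genotypes. Its log2 fold change was 1.08 ± 0.16 (edgeR adjusted p = 0.00169). It lies on 3L from 21832774 to 21836685, plus strand.

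Nop17l is named after yeast Nop17, an assembly factor of box C/D snoRNPs. The gene is placed in this group by that name alone, and its role in flies was not settled here. Nop17l stood at 95.1 CPM and 81.9 CPM in wildtype and at 48.8 CPM and 56.0 CPM in the mutant. Both mutant libraries were lower, with a log2 fold change of −0.75 ± 0.15 (edgeR adjusted p = 0.00595), and the gene remained called lower in all 14 alternatives. By RPKM it ranked 13 of the 34 genes in wildtype and 32 in the mutant. Its ratio to nop5 in RPKM was 0.465 and 0.355 in wildtype and 0.105 and 0.139 in the mutant. The gene lies on 2R from 7800785 to 7806385, minus strand, and 7.4% of its exon length overlaps PolZ1 on the other strand.

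Of the 4 genes listed for a chaperone complex, R2TP, 1 passed the test, beside 41.3% of all tested genes in either direction. spag, a co-chaperone of that complex, stood at 35.0 CPM and 30.8 CPM in wildtype and at 16.9 CPM and 14.9 CPM in the mutant, a log2 fold change of −1.03 ± 0.14 (edgeR adjusted p = 0.00129). The AAA ATPases pont (−0.06 ± 0.14) and rept (0.18 ± 0.14) and Pih1D1 (0.28 ± 0.15) did not pass. The median of the 4 was 0.06.

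Of the 7 genes for 40S assembly and processing of the 18S rRNA 6 rose, with a median log2 fold change of 0.65 over the 7. RIOK1, an atypical kinase that acts on late pre-40S particles in the cytoplasm, stood at 19.1 CPM and 19.7 CPM in wildtype and at 47.9 CPM and 46.2 CPM in the mutant. The libraries of each genotype were nearly equal, and the log2 fold change was 1.27 ± 0.13 (edgeR adjusted p = 0.000462). bys, the fly bystin, which binds the pre-40S particle from the nucleolus on, stood at 24.6 CPM and 29.9 CPM against 61.2 CPM and 57.1 CPM (1.11 ± 0.15, edgeR adjusted p = 0.00118). RIOK1 lies on 3L from 11646234 to 11648474, minus strand, and bys on X from 7901880 to 7903643, plus strand, and neither overlaps another gene.

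RIOK2, the related kinase that also acts on late pre-40S particles, rose by 0.86 ± 0.16 (edgeR adjusted p = 0.00416), from 29.8 CPM and 26.6 CPM to 45.9 CPM and 55.7 CPM. However, 48.5% of its counted length overlaps asRNA:CR45214 on the other strand, and the file headers do not say whether counting used the strand, so its value is uncertain. In RPKM the ratio of RIOK2 to RIOK1 was 1.89 and 1.63 in wildtype and 1.16 and 1.46 in the mutant. Both mutant ratios were lower, and the groups did not overlap.

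The remaining 40S genes changed less. kz, a helicase that releases the U3 snoRNA from the early precursor in other species, rose by 0.65 ± 0.14 (edgeR adjusted p = 0.00939). wcd, a fly counterpart of a U3 snoRNP protein, rose by 0.56 ± 0.14 (edgeR adjusted p = 0.0186), and Tsr1, a GTPase-like factor of the late pre-40S particle, by 0.50 ± 0.15 (edgeR adjusted p = 0.0301). These 3 calls were lost in some alternatives: kz in DESeq2 and without mutant replicate 2, wcd in DESeq2 and on leaving out any single library other than mutant replicate 1, and Tsr1 in 6 of the 14. Over all 14 the log2 fold change of Tsr1 ran from 0.39 to 0.62. The exons of Tsr1 overlap Tbc1d8-9 on the other strand over 19.4% of their length. dbe, the fly Krr1 counterpart in the early 40S precursor, stood at 18.4 CPM and 19.2 CPM in wildtype and at 23.5 CPM and 23.4 CPM in the mutant, apart but with a log2 fold change of 0.32 ± 0.13 (edgeR adjusted p = 0.0849).

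Of the 9 genes for 60S assembly and export 8 rose, with a median log2 fold change of 0.72. ppan (peter pan), which acts on early 60S precursors, rose by 0.99 ± 0.13 (edgeR adjusted p = 0.00117), from 21.4 CPM and 21.0 CPM to 42.1 CPM and 41.7 CPM. pit (pitchoune), a DEAD-box helicase of the nucleolus, rose by 0.85 ± 0.14 (edgeR adjusted p = 0.00317), from 100 CPM and 96.8 CPM to 170 CPM and 184 CPM. Nmd3, the export adaptor of the 60S subunit, rose by 0.83 ± 0.14 (edgeR adjusted p = 0.0029), from 38.2 CPM and 41.5 CPM to 74.8 CPM and 67.2 CPM. In each of these the gap between the genotypes was wider than that between the libraries of a genotype.

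The GTPases of the nucleostemin family, which act at the nucleolar, nuclear and cytoplasmic steps of 60S maturation, all rose: Ns1 by 0.74 ± 0.14, Ns3 by 0.72 ± 0.14 and Ns2 by 0.64 ± 0.17 on the log2 scale. The edgeR adjusted p-values were 0.00508, 0.00592 and 0.0224. In RPKM the ratios of Ns2 and of Ns3 to Ns1 overlapped between the genotypes. The call on Ns2 was lost without wildtype replicate 2 and in DESeq2. Mys45A, the fly counterpart of yeast Sda1, rose by 0.72 ± 0.13 (edgeR adjusted p = 0.0042).

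Nnp-1, the counterpart of yeast Rrp1, rose by 0.58 ± 0.15 (edgeR adjusted p = 0.0166), a call that was lost in DESeq2, without wildtype replicate 2 and without mutant replicate 1. Non1, a nucleolar GTPase of the early 60S precursor, stood at 77.7 CPM and 54.8 CPM in wildtype and at 105 CPM and 89.0 CPM in the mutant. The groups did not overlap, but the wildtype libraries were spread, and the log2 fold change of 0.56 ± 0.19 missed the threshold (edgeR adjusted p = 0.0512). It passed in 7 of the 14 alternatives, and without the single libraries its log2 fold change ran from 0.31 without wildtype replicate 2 to 0.82 without wildtype replicate 1.

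The other 4 nucleolar genes held the largest change. Surf6, a nucleolar protein needed for early processing in yeast, stood at 13.9 CPM and 13.5 CPM in wildtype and at 42.8 CPM and 39.8 CPM in the mutant, from 43, 73, 551 and 347 counts. The mutant level was 3.03-fold the wildtype level, a log2 fold change of 1.60 ± 0.14 (edgeR adjusted p = 0.000216). No other member exceeded the median of the cytoplasmic ribosomal protein genes, 1.42. By RPKM, Surf6 ranked 31 of the 34 genes in wildtype and 18 in the mutant. It lies on 3R from 19903665 to 19904868, minus strand, where 2.2% of its exon length overlaps ClpX on the same strand.

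nclb, a chromatin-associated factor that promotes ribosomal DNA transcription in the fly germline, stood at 38.8 CPM and 36.5 CPM in wildtype and at 89.2 CPM and 88.1 CPM in the mutant. Its log2 fold change was 1.24 ± 0.13 (edgeR adjusted p = 0.000501), with libraries of a genotype close together. It lies on 2R from 10875748 to 10877296, plus strand. mbm, a nucleolar protein known from growing neuroblasts, rose by 0.78 ± 0.14 (edgeR adjusted p = 0.00339), and vito (viriato), a nucleolar protein needed for tissue growth, had 20.4 CPM and 20.1 CPM in wildtype and 24.5 CPM and 30.3 CPM in the mutant (0.43 ± 0.15, edgeR adjusted p = 0.0582). The vito libraries did not overlap, and the test was not passed. It passed in 4 of the 14 alternatives, the log2 fold change running from 0.28 without mutant replicate 2 to 0.55 without mutant replicate 1.

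Of 40 further biogenesis genes 29 rose and none fell in edgeR (0 at an unadjusted p under 0.05 and 0 in DESeq2). Over all tested genes the edgeR shares were 20.4% and 20.9%. The median log2 fold change of the 40 was 0.63. In DESeq2 19 of the 40 rose, and 848 of all tested genes. eIF6, which keeps immature 60S subunits from joining, rose by 1.03 ± 0.14 (edgeR adjusted p = 0.00115). CG7006, the counterpart of yeast Nip7, rose by 0.98 ± 0.13 (edgeR adjusted p = 0.00121), and CG6724 by 0.94 ± 0.13 (edgeR adjusted p = 0.00137). Only 2 of the 40 had a log2 fold change below 0, CG2875 (−0.07 ± 0.13) and Ddx56 (−0.02 ± 0.17), named after their values were seen.

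Of 11 genes of the RNA exosome, which trims the precursor and removes its spacers, 5 rose, beside 20.4% of all tested genes. All 11 log2 fold changes were above 0, as were 4014 of the 7784 over all tested genes, and the median was 0.68. The 5 that rose were Rrp46 (1.18 ± 0.17), Mtr4 (0.82 ± 0.13), Mtr3 (0.80 ± 0.13), Rrp6 (0.73 ± 0.13) and Ski6 (0.62 ± 0.16). The number rose to 8 when protein-coding genes alone were fitted and was 4 in DESeq2.

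Of 12 genes that act upstream in growth control, 1 rose and 1 fell, smaller shares than the 20.4% and 20.9% of all tested genes. Mnt, the fly antagonist of Myc, had a log2 fold change of 0.39 ± 0.13 (edgeR adjusted p = 0.0468), and mTor, a kinase that promotes ribosome production, one of −0.49 ± 0.16 (edgeR adjusted p = 0.0419). The call on Mnt was lost with any 1 library left out, and that on mTor without wildtype replicate 1 or either mutant replicate. Both calls were also lost in DESeq2 and with library totals in place of TMM, and that on Mnt with DESeq2 size factors in edgeR. Myc, a known activator of biogenesis genes in flies, did not pass (log2 fold change 0.31 ± 0.13, edgeR adjusted p = 0.101). Both of its mutant libraries lay above both wildtype libraries, as for 37.5% of all tested genes. The median of the 12 was 0.04, close to that of all tested genes.

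The cytoplasmic ribosomal proteins rose further than the genes that assemble them. Of 83 tested, RpS5b left out, 79 rose and 1, RpS10a, fell, beside 20.4% and 20.9% of all tested genes. The median log2 fold change of the 83 was 1.42, against 0.77 for the 34 genes. RpS10a had 11 and 24 counts in wildtype and 12 and 1 in the mutant, and its call was lost without wildtype replicate 2. Summed, the list stood at 14349 CPM and 12789 CPM in wildtype and at 36084 CPM and 29179 CPM in the mutant. The mutant libraries differed from each other by more in this sum than in that of the 34 genes. The difference between the lists was not tested.

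**Figure D4:**
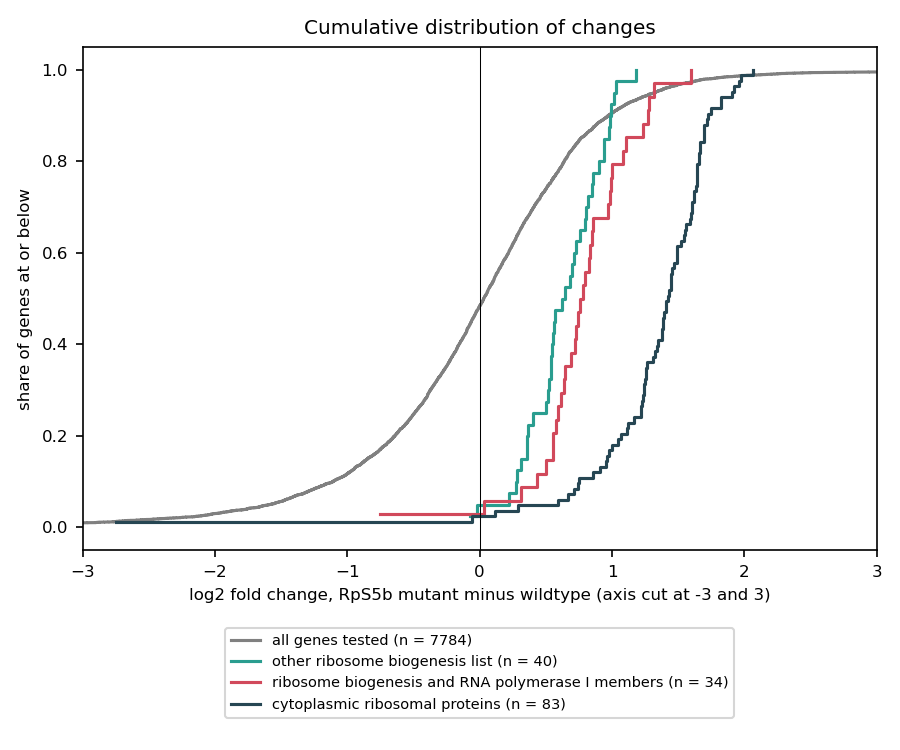
Cumulative share of genes (y axis) at or below a log2 fold change (x axis, mutant minus wildtype, cut at −3 and 3) for the 34 ribosome biogenesis and RNA polymerase I genes, 40 other biogenesis genes, 83 cytoplasmic ribosomal proteins and 7784 tested genes. The medians are 0.77, 0.63, 1.42 and 0.03.

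Across the 34 genes, the size of the change had little relation to the level in wildtype (Spearman's rho −0.07 with mean wildtype CPM) and a weak one to transcript length (rho −0.30). The order of the levels per length was similar in both genotypes (rho 0.88 between mean RPKM). These are descriptions over 34 genes measured in the same 4 libraries, with lengths that enter RPKM. The genes lie on all major arms, 11 on 2R, 8 on 2L, 6 on 3R, 5 on 3L and 4 on X, with median log2 fold changes between 0.59 (3L) and 0.85 (3R). Of the 34, 13 overlap another gene's exons, 11 on the other strand and 2 on the same strand. Of the 21 that overlap none, 17 rose, beside 28 of all 34 and 20.4% of all tested genes.

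**Figure D5:**
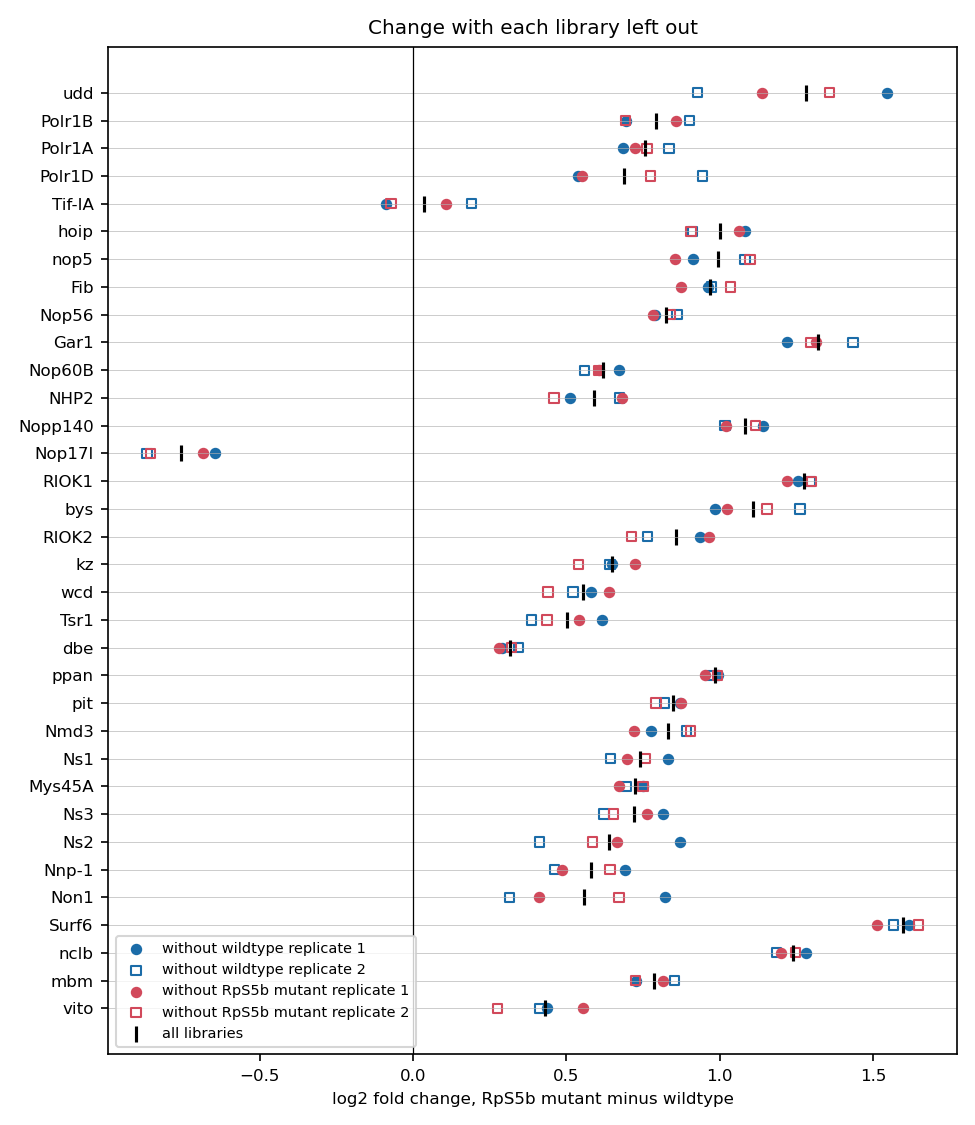
Log2 fold change (mutant minus wildtype) of each of the 34 genes with each library left out in turn; the black tick is the value from all 4 libraries. Tif-IA crosses 0, Nop17l stays below 0, and the other 32 genes stay above 0.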

How the data were processed

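Footprint libraries from ovaries, 2 wildtype and 2 RpS5b mutant, were compared. The authors deposited 1 table a library with 34729 transcripts. Per the file headers, reads of 25 to 100 nt were placed at 12 nt from their 5′ end and the counts give how many fell in a transcript, untranslated regions included and with no mask. The deposited RPKM values are counts scaled to transcript length and to the header total of reads, and the deposited signal column is counts per nucleotide. Footprints of 28 to 34 nt were selected and ribosomal RNA was depleted, per the labels' protocols. The submitters' processing notes name TopHat2 2.1.2 and Bowtie 1.0.0, bedtools 2.26.0 and SAMtools 0.1.19, DESeq2 and the build BDGP6, without their roles.

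Transcripts were tied to RefSeq genes of Release 6 by ends, splice junctions, exon ends or an overlap of 80% both ways (34589 named, 99.6%; the 140 others held at most 0.016% of counts and were left out). The transcript with the highest mean count stood for its gene. Reads in overlapping genes are counted in each, and no source used here states the strand handling. Genes kept by filterByExpr (7784) were TMM-scaled and tested with edgeR 4.0.16 (R 4.3.3), genotype being the only term, with Benjamini-Hochberg adjustment over all of them; residual and prior degrees of freedom were 2 and 5.52. Standard errors are the log2 fold change over the square root of F. The functions were tested on simulated data. Counts of the 2 libraries of a genotype differed beyond sampling noise (chi-square per degree of freedom 14.7 and 42.5). There were 14 alternatives, among them DESeq2 1.42.0.

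The members and lists were chosen with earlier results of these data known. Library values are printed for all RNA polymerase I members, the 8 called members with the largest change in each direction and, of those not called, the ones with the largest and the smallest change; other members' library values were added where they show the spread. From the other lists the rule named, in each direction, at most 3 genes by lowest p among those averaging 10 CPM or more; further polymerase, exosome and R2TP genes were named after their values were seen. The symbols of 2 list entries (CG4364 and nanos) were corrected after the tables were read. The values of 1 RNA polymerase gene are not reported here. Planned promoter motif and protein comparisons were not run, and no sequence was used here.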

Additional observations from a re-analysis of the deposited data

How the results depend on the processing

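Of 474 values of the 34 genes under 14 alternatives, 429 kept direction and call, 28 lost the call, 15 gained it and 2 changed sign. Both reversals were of Tif-IA, at −0.0885 without wildtype replicate 1 and −0.0716 without mutant replicate 2 (range over single libraries left out −0.0885 to 0.1896); it is not called under any setting. The genes that rose numbered 21 (DESeq2) to 31, and 22 to 26 with a library left out; the median log2 fold change of all 34 ran from 0.74 to 0.83. Of the 28 genes that rose, 20 stayed called in every alternative, and NHP2, Nnp-1, Nop60B, Ns2, Tsr1, kz, udd and wcd did not. Over all tested genes 848 rose in DESeq2 against 1590 in edgeR, and 1059 to 1225 with a library left out; the cause was not tested. The median of all genes moved to 0.097 with library totals in place of TMM and to 0.106 with no filter. The labels do not say that replicate numbers pair the libraries; deviations of same-numbered libraries correlated at r = 0.246 over 7784 genes, and with a replicate block 31 of the 34 genes rose, 1 fell, and 1937 of all genes rose. With 2 libraries a genotype and the shallower ones both wildtype, low-count genes such as udd and Polr1D are the least precise; thinning all libraries to the smallest total left 27 genes that rose. The alternative that used the member transcript with the least overlap was chosen after seeing the data and gave 28.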
